A study of Mus musculus with 6 samples.

Results

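The genes described here are 47 mouse genes of the lysosome, chosen by name as a list of soluble hydrolases and their helpers, lysosomal membrane proteins and subunits of the vacuolar proton pump (V-ATPase), with the cathepsins left out. The list was drawn up with earlier results of the same data known, which limits its comparison with all genes. All 47 were found among the 30445 genes of the count table, 45 under the listed symbol and 2 under the current one: Limp2 is given as Scarb2 and Tmem55b as Pip4p1. Messenger RNA was sequenced from 3 groups of wild-type mouse cells with 2 libraries each: induced macrophages (iMac), a complex of myeloid-like cells (MCC) and embryonic fibroblasts (MEF). The series title names c-Myc as the factor that turns fibroblasts into macrophages. The labels do not tell how iMac and MCC were derived or related. Whether the libraries of a group stem from separate cultures is not stated, and p-values therefore measure only the spread between libraries.

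Lysosomes are acidic, membrane-bound compartments in which enzymes break down proteins, lipids, glycans and nucleic acids delivered by endocytosis, phagocytosis and autophagy. The V-ATPase pumps protons into them: its V1 part hydrolyses ATP in the cytosol, its V0 part carries protons across the membrane, and several subunits exist as tissue-specific paralogs. Many lysosomal genes carry a DNA motif built on the E-box CACGTG (the CLEAR motif), which is bound by TFEB and its relatives. Macrophages are rich in lysosomes because they digest what they engulf.

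Library totals ranged from 34389817 to 39174367 counts. The strand setting of the counting is not stated, so genes whose exons overlap another gene are less certain: that share of exonic bases was 39.9% for Arsb, 19.5% for Pip4p1, 18.8% for Arsa, 12.8% for Hexa, 12.6% for Acp2, 11.8% for Atp6v0b and 9.3% for Lamp1. Of 12 macrophage marker genes, 12 lay above 1 CPM (counts per 1e6 counts of the scaled library) in both libraries of iMac, 12 in MCC and 2 in MEF, and their summed level was 21048 to 24974 CPM in iMac, 14183 to 14636 CPM in MCC and 5.99 to 9.15 CPM in MEF. The sum of 12 fibroblast markers was 60.6 to 65.0 CPM in iMac, 586 to 2469 CPM in MCC and 18104 to 36999 CPM in MEF, so both marker sums differed in MCC from those in iMac. Granulocyte, mast cell, dendritic cell, lymphocyte, erythroid, endothelial and melanocyte lists each summed to less than 20 CPM in every library. Osteoclast markers, some of which macrophages share, summed to 100.1 to 132 CPM in iMac, 115 to 182 CPM in MCC and 59.9 to 63.1 CPM in MEF. In bulk RNA, a change in the share of cells that express a gene and a change in RNA per cell cannot be told apart.

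The first question was which lysosomal genes differed between iMac and the fibroblasts. Most did, and most upward: 33 of the 47 rose in iMac, 4 fell and 10 did not pass the test. The rises above 2 on the log2 scale were those of Pld4, Laptm5, the protease legumain (Lgmn), the glycan-degrading enzymes Gusb, Man2b1, Manba and Hexa, the acid lipase Lipa, progranulin (Grn), the proton pump subunit Atp6v1b2 and prosaposin (Psap), whereas Smpd1, Laptm4a, Arsa and the proton pump subunit Atp6v1d fell. Of all 18613 genes tested, 57.6% were called, 25.1% higher and 32.4% lower in iMac than in MEF (edgeR quasi-likelihood test, Benjamini-Hochberg adjusted p under 0.05), against 33 of 47 and 4 of 47 here. The changes reached at least 2-fold in 23 genes that rose and 2 that fell, beside 14.6% and 26.2% of all genes. The macrophage marker sum was higher and the fibroblast marker sum lower in iMac and MCC than in MEF, the directions of the rises and of the falls, and their part in either was not tested. The median log2 fold change of the 47 was 1.06 and that of all genes tested was -0.06. When each library was left out in turn, 24 of the 33 rises and 2 of the 4 falls passed in every fit. The calls that did not were those of Arsb, Atp6ap2, Atp6v1c1, Lamp1, Mcoln1, Npc1, Npc2, Pip4p1, Ppt1, Arsa and Atp6v1d.

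The second comparison set the MCC against the fibroblasts. Here 28 of the 47 rose, 5 fell and 14 did not pass. Of all genes tested, 53.0% were called, 23.4% higher and 29.6% lower. At least 2-fold were 18 of the rises and 2 of the falls, beside 13.2% and 23.1% of all genes, and the median log2 fold change was 0.48, against -0.05 for all genes. Both comparisons use the same MEF libraries, which by itself favours calls shared between them. Shared calls were not counted over all genes, so the numbers that follow have no background beside them. Called higher in both were 27 genes and lower in both 4. Another 6 were called higher in iMac alone (Lamp1, Mcoln1, Npc1, Npc2, Ppt1 and Pld3), and Plbd1 was called higher and Plbd2 lower in MCC alone. In every fit that left out a library, 23 of the 28 rises and 3 of the 5 falls passed; the others were Arsb, Atp6ap2, Pip4p1, Plbd1, Tpp1, Arsa and Plbd2. A difference in calls is not in itself a difference between iMac and MCC, which was tested separately.

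**Figure D1:**
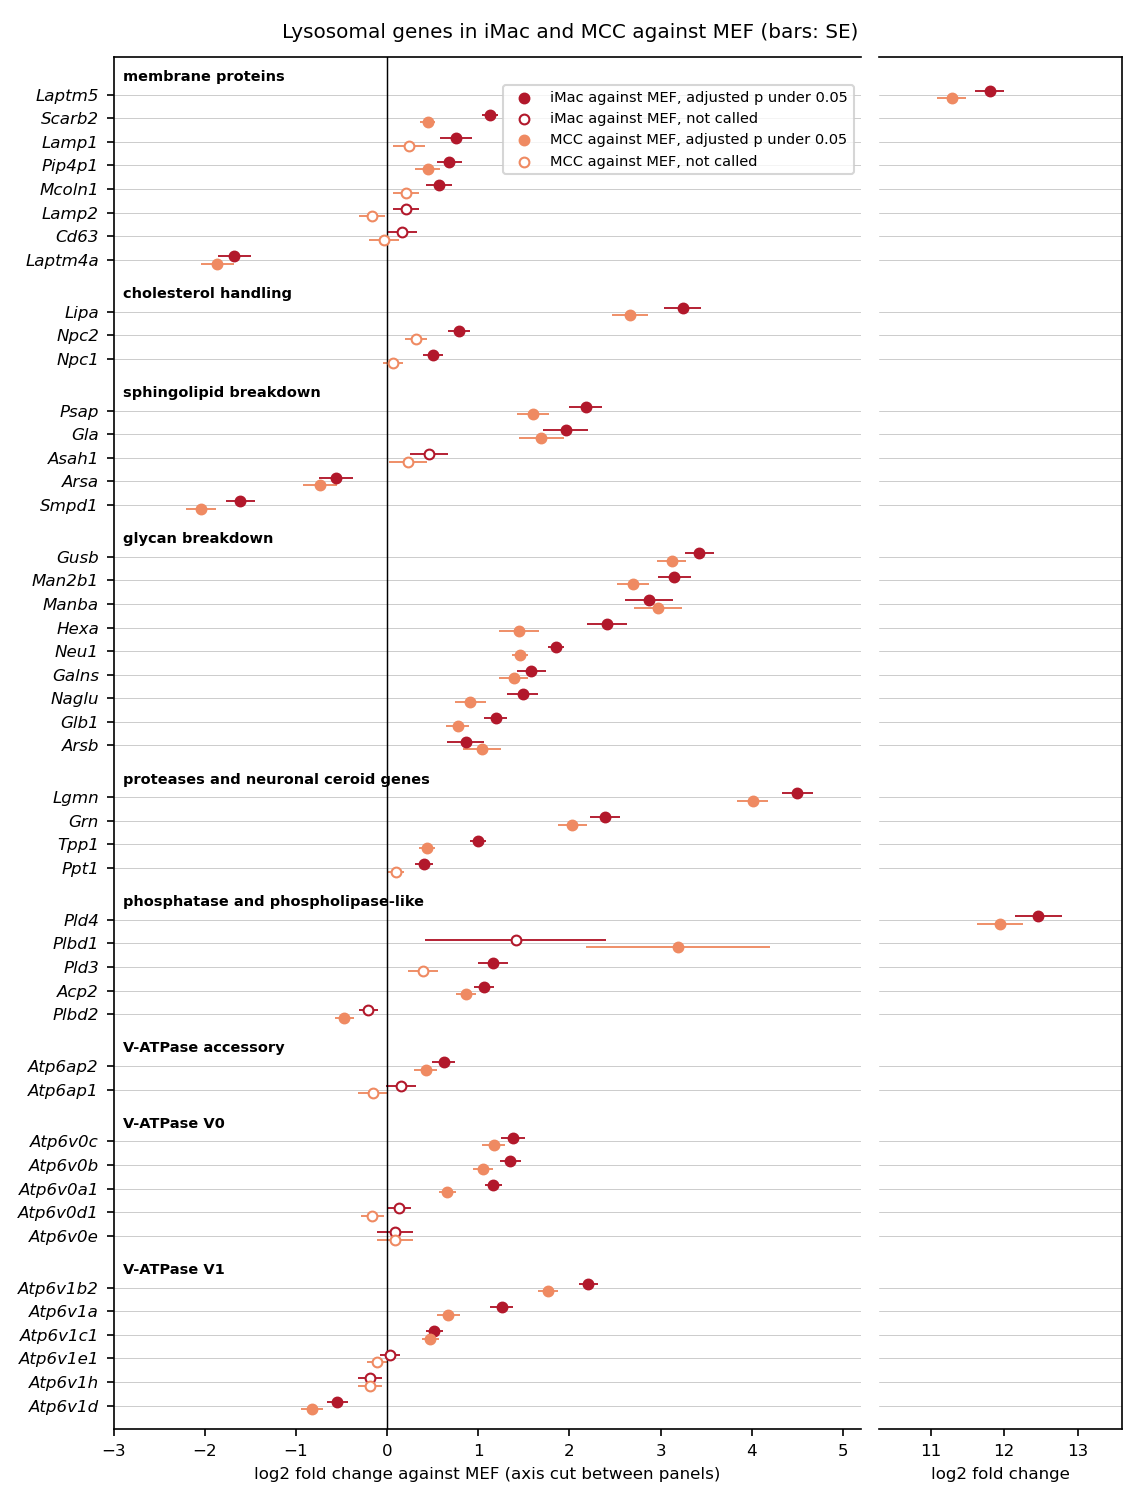
Log2 fold change (horizontal axis, cut between the panels) of each of the 47 genes in iMac against MEF (dark red) and in MCC against MEF (orange), by role; bars are standard errors and filled points have an adjusted p under 0.05. Laptm5 and Pld4 lie at 11.81 and 12.46 in iMac, and all 9 glycan-degrading genes lie to the right of 0 in both comparisons.

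Promoter sequence was read for the same genes, since the E-box CACGTG is the core of the CLEAR motif. Windows of 250 bases before to 50 after the annotated start (RefSeq, GRCm38.p6) were matched by symbol for 40 of the 47 genes; Npc1, Asah1, Galns, Plbd2, Atp6v1b2, Atp6v1c1 and Atp6v1h had no entry. CACGTG, which reads the same on both strands, was present in 13 of 40 (32.5%), against 8.09% of all 27025 genes with a window. TCACGTGA, a longer form that contains CACGTG, was present in 6 of 40 (15.0%), against 1.12% of all genes. The 13 genes with CACGTG were Arsa, Atp6v0b, Atp6v0d1, Atp6v0e, Atp6v1a, Gla, Glb1, Lamp1, Lgmn, Mcoln1, Naglu, Pip4p1 and Plbd1. Of these 13, 9 were higher, 1 lower and 3 not called in iMac against MEF; of the 27 without it, 20 were higher, 3 lower and 4 not called. A match is a description of the letters in the window and says nothing about binding.

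The stretches of 120 bases shown here, all 5′ to 3′ on the strand of the gene and credited to RefSeq (GRCm38.p6), are examples from these 13 genes, chosen with their values known: Lamp1, Mcoln1, Atp6v0b, Lgmn and Gla were higher in iMac than in MEF, Arsa was lower and Atp6v0d1 was not called. CACGTG is in capitals. Lamp1 (chr8:13159041-13159160 (+ strand), the 120 bases before the start) holds 4 copies, Mcoln1 (chr8:3500399-3500518 (+ strand)) and Atp6v0b (chr4:117887330-117887449 (- strand)) 2 each over the same positions, and Lgmn 1 at a start inside the gene (chr12:102439093-102439212 (- strand)). The other of the 2 windows of Lgmn has no CACGTG. Gla (chrX:134601126-134601245 (- strand), further upstream in its window) holds 2. Arsa (chr15:89477425-89477544 (- strand), the 120 bases before the start) holds 1, and Atp6v0d1 (chr8:105566045-105566164 (- strand), from 100 bases before the start to 20 bases into the transcript) holds 1 across the start.
Lamp1: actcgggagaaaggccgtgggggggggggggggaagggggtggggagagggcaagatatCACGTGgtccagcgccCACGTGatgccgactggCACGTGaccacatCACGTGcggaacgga
Mcoln1: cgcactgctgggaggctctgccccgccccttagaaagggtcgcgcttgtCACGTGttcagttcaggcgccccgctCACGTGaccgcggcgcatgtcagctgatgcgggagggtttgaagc
Atp6v0b: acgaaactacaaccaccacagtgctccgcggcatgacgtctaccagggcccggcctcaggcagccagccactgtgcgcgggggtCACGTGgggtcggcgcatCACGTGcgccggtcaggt
Lgmn: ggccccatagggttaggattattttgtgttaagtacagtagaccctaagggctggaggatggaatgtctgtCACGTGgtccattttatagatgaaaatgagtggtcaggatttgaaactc
Gla: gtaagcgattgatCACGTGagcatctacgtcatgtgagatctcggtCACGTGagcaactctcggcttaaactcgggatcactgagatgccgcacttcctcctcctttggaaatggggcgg
Arsa: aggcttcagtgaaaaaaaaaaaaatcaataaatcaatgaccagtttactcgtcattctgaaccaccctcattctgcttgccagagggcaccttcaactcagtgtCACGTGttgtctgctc
Atp6v0d1: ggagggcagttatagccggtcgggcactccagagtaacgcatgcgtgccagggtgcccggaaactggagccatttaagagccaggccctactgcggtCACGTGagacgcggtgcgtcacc

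The genes that rose most, Laptm5 and Pld4, had no CACGTG in their window. They are shown with GAGGAA, a core of the sites bound by the myeloid factor PU.1, in capitals on either strand (TTCCTC on the other one). GAGGAA was present in 16 of the 40 genes (40.0%), against 31.3% of all genes. Of these, Atp6v0a1, Gla, Glb1, Grn, Gusb, Laptm5, Lipa, Man2b1, Manba, Pld4 and Psap were higher in iMac than in MEF. Arsa, Atp6v1d and Smpd1 were lower, and Cd63 and Lamp2 were not called. Calls of the genes without GAGGAA were not counted beside these, so the list ties the motif to neither direction. Here too a match says nothing about binding. The Laptm5 stretch (chr4:130913196-130913315 (+ strand)) ends at the base before the start, and that of Pld4 (chr12:112760555-112760674 (+ strand)) runs from 100 bases before the start to 20 bases into the transcript.
Laptm5: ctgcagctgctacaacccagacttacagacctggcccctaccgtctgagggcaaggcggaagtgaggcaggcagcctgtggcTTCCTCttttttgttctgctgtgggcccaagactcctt
Pld4: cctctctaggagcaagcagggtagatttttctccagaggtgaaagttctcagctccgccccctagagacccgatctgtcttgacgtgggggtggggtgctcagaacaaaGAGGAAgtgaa

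Together the 47 genes took 2.57% and 2.48% of all counts in the iMac libraries and 1.90% and 2.11% in the MCC libraries, against 0.901% and 0.876% in the MEF libraries. The 5 most abundant of them in iMac (Psap, Lgmn, Grn, Laptm5 and Lamp1) held 53.5% and 54.0% of that sum in iMac and 50.5% and 53.7% in MCC, against 30.8% and 31.6% in MEF. These 5 were picked by their level in iMac. That choice favours a larger share there, so the contrast with MEF is not a separate result. The 13 proton pump genes took 0.284% and 0.272% of all counts in iMac and 0.242% and 0.237% in MCC, against 0.163% in each MEF library. The other 34 genes took 2.28% and 2.21% in iMac and 1.66% and 1.87% in MCC, against 0.737% and 0.713% in MEF. The groups did not overlap in the sums over the 47, the 13 and the 34 genes, whereas the share of the 5 most abundant in MCC library 2 lay between those of the iMac libraries. The 13 and the 34 genes make up the 47, so these sums are not separate observations. How often sums over other genes part the groups in this way was not computed. Between the libraries of a group, 0 of the 46 genes at 10 CPM or more differed by over 1.5-fold in iMac, 0 of 46 in MCC and 4 of 44 in MEF, the widest being Manba.

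Among the 8 membrane proteins, 5 rose in iMac (Laptm5, Scarb2, Lamp1, Pip4p1 and Mcoln1), 1 fell (Laptm4a) and 2 did not pass. Beside this and each later group of the 47, 25.1% of all genes tested were higher and 32.4% lower in iMac than in MEF. In MCC against MEF these shares were 23.4% and 29.6%. Laptm5, a membrane protein of lysosomes in blood cells (chromosome 4, 130913125 to 130936141, mm10), had 1730.4 and 1704 CPM in iMac and 1126 and 1268 CPM in MCC, against 0.515 and 0.438 CPM in MEF. It was among the most abundant of the 47 genes in iMac and MCC and rested on 19 and 17 reads in MEF. The log2 fold change was 11.81 ± 0.20 (SE) in iMac and 11.29 ± 0.19 in MCC (adjusted p = 4.18e-05 and 4.68e-05, edgeR quasi-likelihood test). Standard errors were back-calculated from the F statistic of that test, and with so few MEF reads that of Laptm5 may understate counting error. Its relative Laptm4a (chromosome 12, 8921664 to 8938742), which is expressed in many tissues, went the other way, with 262 and 242 CPM in iMac and 246 and 197 CPM in MCC, against 899.9 and 708 CPM in MEF. Laptm4a fell by 1.68 ± 0.18 in iMac and fell by 1.86 ± 0.18 in MCC on the log2 scale (adjusted p = 0.00195 and 0.00187). Per kilobase of exon, Laptm5 stood at 3.19 times Laptm4a in iMac and 2.53 times in MCC, against 0.000277 times in MEF. With the longest transcript as the length these ratios were 4.65, 3.69 and 0.000404.

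Of Lamp1 and Lamp2, the heavily glycosylated proteins that line the lysosomal membrane, Lamp1 rose in iMac and Lamp2 passed in neither comparison. Lamp1 (chromosome 8, 13159161 to 13175338) had 1749.9 and 1544 CPM in iMac and 1083 and 1222 CPM in MCC, against 1104 and 848 CPM in MEF, where it was already the most abundant per kilobase after Psap and Laptm4a. The iMac libraries lay above all others, whereas the MCC and MEF libraries overlapped. Its log2 fold change was 0.76 ± 0.17 in iMac (adjusted p = 0.017) and 0.24 ± 0.17 in MCC (adjusted p = 0.29). The iMac call was lost without iMac library 1 (0.68, adjusted p = 0.103) and without iMac library 2 (0.86, adjusted p = 0.0673). Lamp2 had 569 and 540.2 CPM in iMac and 434 and 423 CPM in MCC, against 539 and 420.4 CPM in MEF. Its log2 fold changes were 0.21 ± 0.14 and -0.16 ± 0.14 (adjusted p = 0.267 and 0.378), and it passed in iMac without MEF library 1 (0.41, adjusted p = 0.0206). Per kilobase it stood at 0.0943 times Lamp1 in iMac and 0.104 times in MCC, against 0.138 times in MEF. With the longest transcript as the length these ratios were 0.208, 0.230 and 0.304.

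Scarb2, which carries glucocerebrosidase to the lysosome, had 323 and 308 CPM in iMac and 194 and 198 CPM in MCC, against 146 and 142 CPM in MEF. Each group's libraries lay close together and the groups did not overlap, and the log2 fold changes of 1.13 ± 0.08 in iMac and 0.44 ± 0.08 in MCC both passed (adjusted p = 0.000761 and 0.0106). Mcoln1, the calcium release channel of the lysosome, rose by a log2 fold change of 0.57 ± 0.15 in iMac (adjusted p = 0.0229) and had 0.21 ± 0.15 in MCC (adjusted p = 0.273). Pip4p1, a phosphoinositide phosphatase that helps to position lysosomes, rose by 0.68 ± 0.14 in iMac and 0.45 ± 0.14 in MCC (adjusted p = 0.0112 and 0.0419). Without iMac library 1 the iMac values of both genes missed the threshold (adjusted p = 0.113 and 0.0777), as they did without iMac library 2 (0.0968 and 0.0536). Mcoln1 also missed it without MEF library 1 (0.0785), and the MCC call of Pip4p1 was lost without each library other than MCC library 1. Cd63, a tetraspanin of late endosomes and exosomes, had 593 and 556 CPM in iMac and 509 and 490.0 CPM in MCC, against 586 and 436 CPM in MEF. The MEF libraries thus spanned the other groups except for iMac library 1, and the iMac log2 fold change of 0.17 (adjusted p = 0.414) was 0.41 (adjusted p = 0.0248) without MEF library 1.

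All 3 genes of cholesterol handling rose in iMac, and 1 of them in MCC. Lipa, the acid lipase that frees cholesterol from its esters (chromosome 19, 34492318 to 34527474), had 824 and 682 CPM in iMac and 534 and 474 CPM in MCC, against 91.3 and 67.8 CPM in MEF. That was a log2 fold change of 3.24 ± 0.21 in iMac and 2.66 ± 0.20 in MCC (adjusted p = 0.000512 and 0.00103). Npc2, the soluble carrier that hands cholesterol to Npc1, was the most abundant of the 3 per kilobase, with 826 and 761 CPM in iMac and 529.6 and 614 CPM in MCC, against 476 and 441 CPM in MEF. It rose by 0.79 ± 0.12 in iMac (adjusted p = 0.00544) and had 0.32 ± 0.12 in MCC (adjusted p = 0.0787). The iMac value without iMac library 1 was 0.75 (adjusted p = 0.0508). Npc1, the membrane exporter, rose by 0.50 ± 0.11 in iMac (adjusted p = 0.0143) and had 0.06 ± 0.11 in MCC (adjusted p = 0.644). The iMac call was lost without iMac library 1 (adjusted p = 0.0937) and without iMac library 2 (0.073).

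The 5 genes of sphingolipid breakdown split, with Psap and Gla higher, Smpd1 and Arsa lower and Asah1 not called in either comparison. Psap encodes prosaposin, the precursor of the saposins that present lipids to their hydrolases (chromosome 10, 60277627 to 60302597). By the mean of each group it had the highest level of the 47 genes per kilobase, although Laptm4a stood above it in MEF library 1 (508 against 478 CPM per kilobase). It had 6007 and 5738 CPM in iMac and 3421 and 4446 CPM in MCC, against 1313 and 1281 CPM in MEF. The log2 fold change was 2.18 ± 0.18 in iMac and 1.60 ± 0.18 in MCC (adjusted p = 0.000983 and 0.00257). Gla, the alpha-galactosidase that trims globo-series glycolipids, had 128 and 120.3 CPM in iMac and 97.2 and 109 CPM in MCC, against 24.2 and 39.7 CPM in MEF. Log2 fold changes were 1.96 ± 0.25 and 1.69 ± 0.25 (adjusted p = 0.00318 and 0.00552).

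Smpd1, the acid sphingomyelinase (chromosome 7, 105554360 to 105558389), had 34.0 and 32.0 CPM in iMac and 26.2 and 22.7 CPM in MCC, against 113 and 87.7 CPM in MEF. Every MEF library lay above every other one, and the gene fell by 1.61 ± 0.16 in iMac and fell by 2.04 ± 0.17 in MCC on the log2 scale (adjusted p = 0.00171 and 0.00122). Arsa, the sulfatase that acts on sulfatides, had 48.1 and 47.2 CPM in iMac and 40.4 and 44.2 CPM in MCC, against 82.9 and 58.1 CPM in MEF. Its log2 fold changes of -0.56 ± 0.19 and -0.74 ± 0.19 passed narrowly (adjusted p = 0.0487 and 0.0247). The iMac call was lost in all fits that left out a library except the one without MEF library 2, with -0.28 (adjusted p = 0.0825) without MEF library 1. The MCC call was lost in the 4 fits without an MCC or an iMac library (adjusted p = 0.067 to 0.0888). Asah1, acid ceramidase, had 329.5 and 319.6 CPM in iMac and 274 and 279 CPM in MCC, against 285 and 187 CPM in MEF. It passed in both comparisons without MEF library 1 (log2 fold changes of 0.80 and 0.57, adjusted p = 0.00419 and 0.00934).

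All 9 glycan-degrading genes rose in both comparisons, by a median log2 fold change of 1.85 in iMac and 1.45 in MCC. Gusb, beta-glucuronidase (chromosome 5, 129989011 to 130003049), had 758 and 727 CPM in iMac and 565 and 639.9 CPM in MCC, against 76.9 and 61.3 CPM in MEF, a 10.7-fold and an 8.72-fold difference. On the log2 scale that was 3.43 ± 0.16 in iMac and 3.12 ± 0.16 in MCC (adjusted p = 0.000232 and 0.00035). Man2b1, the lysosomal alpha-mannosidase, had 958 and 905 CPM in iMac and 589 and 772 CPM in MCC, against 113 and 96.9 CPM in MEF. It rose by log2 fold changes of 3.15 ± 0.18 and 2.70 ± 0.18 (adjusted p = 0.000405 and 0.000736). Hexa, the alpha subunit of beta-hexosaminidase, was the most abundant of the 9 per kilobase in iMac, with 856 and 788 CPM in iMac and 411 and 429.8 CPM in MCC, against 186 and 122 CPM in MEF. It rose by 2.41 ± 0.22 in iMac and 1.45 ± 0.22 in MCC (adjusted p = 0.00134 and 0.00574).

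The remaining glycan enzymes spanned log2 fold changes of 0.86 to 2.87 in iMac and 0.78 to 2.97 in MCC. Manba, beta-mannosidase, rose by 2.87 ± 0.26 and 2.97 ± 0.26, and Neu1, the lysosomal sialidase, by 1.85 ± 0.09 and 1.46 ± 0.09 (adjusted p of 0.00154 or less in all 4 tests). Galns and Naglu, which act on keratan and heparan sulfate, rose by 1.58 ± 0.16 and 1.49 ± 0.17 in iMac and by 1.39 ± 0.16 and 0.92 ± 0.17 in MCC. Glb1, beta-galactosidase, rose by 1.19 ± 0.13 in iMac and 0.78 ± 0.13 in MCC (adjusted p = 0.00203 and 0.00753). Arsb, a sulfatase of dermatan sulfate, rose by 0.86 ± 0.21 and 1.04 ± 0.21 (adjusted p = 0.0186 and 0.0125), with the overlapping transcript on the opposite strand. Both calls were lost without MEF library 1 (adjusted p = 0.0791 and 0.056) and the iMac call also without iMac library 2 (0.0737).

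Among proteases and genes of neuronal ceroid lipofuscinosis, an inherited storage disease of neurons, 4 of 4 rose in iMac and 3 of 4 in MCC. Lgmn, the asparaginyl endopeptidase that processes cathepsins and antigens (chromosome 12, 102394084 to 102439813), had 3283 and 3167 CPM in iMac and 2299.9 and 2298 CPM in MCC, against 159 and 126 CPM in MEF. At 22.7-fold in iMac and 16.1-fold in MCC it rose more than any other of the 47 genes apart from Pld4 and Laptm5 (log2 fold changes of 4.50 ± 0.17 and 4.01 ± 0.17, adjusted p = 0.000146 and 0.000204). Grn, progranulin, had 1895 and 1748 CPM in iMac and 1264 and 1578 CPM in MCC, against 365 and 329 CPM in MEF. These gave log2 fold changes of 2.39 ± 0.16 and 2.03 ± 0.16 (adjusted p = 0.000606 and 0.00112). Tpp1, a tripeptidyl peptidase, rose by 0.998 ± 0.09 in iMac and 0.44 ± 0.09 in MCC (adjusted p = 0.00121 and 0.013). The MCC call was lost without iMac library 1 or 2 (adjusted p = 0.0513 and 0.0515). Ppt1, a thioesterase that removes palmitate from proteins, rose by 0.40 ± 0.10 in iMac (adjusted p = 0.0187; 0.128 without iMac library 1 and 0.0765 without iMac library 2) and had 0.09 ± 0.10 in MCC (adjusted p = 0.446).

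The 5 phosphatase and phospholipase-like genes held the most contrasting paralogs. Pld4 (chromosome 12, 112760655 to 112768990), which like Pld3 is an exonuclease of single-stranded nucleic acids in endolysosomes, had 790.3 and 735 CPM in iMac and 519.7 and 542 CPM in MCC, against 0.0813 and 0.180 CPM in MEF. The MEF values rested on 3 and 7 reads, and the log2 fold changes were 12.46 ± 0.32 and 11.94 ± 0.31 (adjusted p = 5.91e-05 and 7.27e-05). Pld3 had 444 and 388 CPM in iMac and 233 and 257 CPM in MCC, against 211 and 161 CPM in MEF. It rose by 1.16 ± 0.17 in iMac (adjusted p = 0.00447) and had 0.40 ± 0.17 in MCC (adjusted p = 0.0978; 0.0291 with 0.61 when MEF library 1 was left out). Per kilobase, Pld4 stood at 1.55 times Pld3 in iMac and 1.83 times in MCC, against 0.000594 times in MEF. By the longest transcript these ratios were 1.93, 2.28 and 0.000740. Acp2, lysosomal acid phosphatase, rose by 1.06 ± 0.11 and 0.87 ± 0.11 (adjusted p = 0.0017 and 0.00348).

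Plbd1 and Plbd2, phospholipase B-like proteins, were called in MCC only, in opposite directions, in the edgeR fit of all 6 libraries. Neither call held in every fit that left out a library. Plbd1 was the rarest of the 47 genes in iMac and MCC, with 1.82 and 0.573 CPM in iMac and 1.35 and 6.90 CPM in MCC, against 0.352 and 0.541 CPM in MEF. Its MCC log2 fold change of 3.20 ± 1.01 (adjusted p = 0.0465) rested on MCC library 2, without which it was 1.71 (adjusted p = 0.146). The call was also lost without MEF library 1 or 2 and without iMac library 1 or 2 (adjusted p = 0.0634 to 0.178). In iMac it was 1.41 ± 0.99 (adjusted p = 0.272). Plbd2 had 149 and 133 CPM in iMac and 114 and 121 CPM in MCC, against 169.7 and 156 CPM in MEF. That gave log2 fold changes of -0.21 ± 0.10 in iMac (adjusted p = 0.142) and -0.47 ± 0.10 in MCC (adjusted p = 0.0163). In iMac, Plbd2 was called lower with DESeq2 (-0.27, adjusted p = 0.0329) and with library totals in edgeR (-0.28, adjusted p = 0.04998). The MCC call was lost without either MCC library (adjusted p = 0.0825 and 0.105) and without either iMac library (0.0515 for each).

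**Figure D2:**
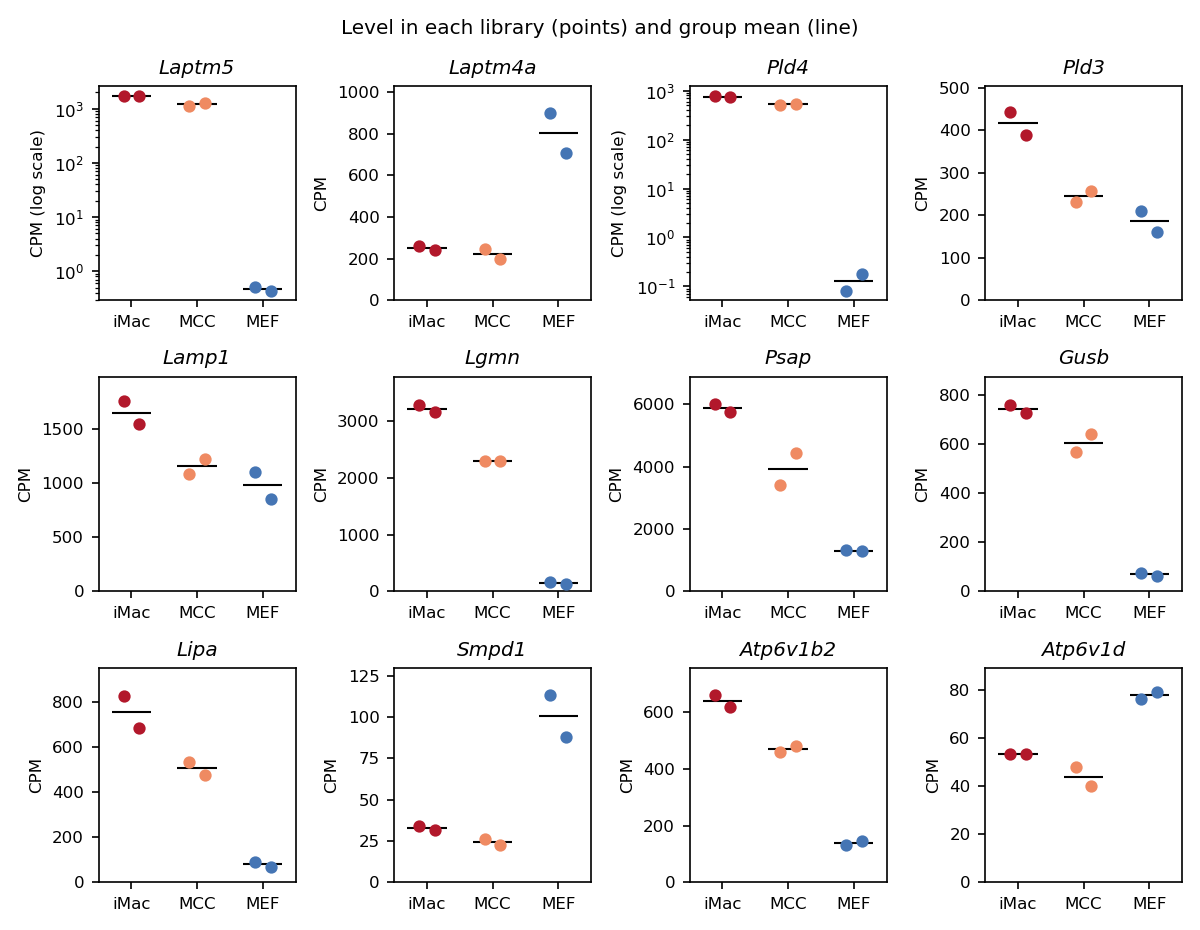
Level in CPM (vertical axis; logarithmic for Laptm5 and Pld4, linear from 0 for the others) of 12 of the 47 genes in each library (points) with the group mean (line), for iMac, MCC and MEF. Laptm5, Pld4, Lgmn, Gusb and Lipa are low in both MEF libraries, whereas Laptm4a, Smpd1 and Atp6v1d are highest there.

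The proton pump changed unevenly. Of its 13 genes among the 47, 7 rose in iMac, 1 fell and 5 did not pass, and the counts in MCC were the same. The median log2 fold change was 0.52 in iMac and 0.42 in MCC, below the 1.15 and 0.82 of the other 34 genes. In the V1 part, both subunits of the ring that binds ATP rose most. Atp6v1b2, the non-catalytic one (chromosome 8, 69088646 to 69113711) had 662 and 619 CPM in iMac and 462 and 479.9 CPM in MCC, against 132 and 145 CPM in MEF. Log2 fold changes reached 2.21 ± 0.11 and 1.77 ± 0.11 (adjusted p = 0.000251 and 0.000555). Atp6v1a, the catalytic one, had 588 and 543 CPM in iMac and 397 and 357 CPM in MCC, against 253 and 219 CPM in MEF, and thus rose by 1.26 ± 0.12 and 0.67 ± 0.12 (adjusted p = 0.0016 and 0.0101). Atp6v1d, a subunit of the central rotor, was lower, at 53.4 and 53.3 CPM in iMac and 48.0 and 39.9 CPM in MCC, against 76.4 and 79.1 CPM in MEF. It fell by 0.54 ± 0.12 in iMac and fell by 0.82 ± 0.12 in MCC (adjusted p = 0.0139 and 0.00524). The iMac call was lost without MEF library 2 (adjusted p = 0.076), iMac library 1 (0.0994) or iMac library 2 (0.101). The stator gene Atp6v1c1 rose by 0.52 ± 0.09 and 0.48 ± 0.09 (adjusted p = 0.00798 and 0.0121). The iMac value missed the threshold without iMac library 1 (0.0554) or 2 (0.07). Atp6v1e1, another stator subunit, and Atp6v1h, a regulatory one, lay between -0.19 and 0.04 on the log2 scale in both comparisons and did not pass.

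In the V0 part, Atp6v0c, Atp6v0b and Atp6v0a1 rose in both comparisons, while Atp6v0d1 and Atp6v0e did not pass. Atp6v0b, a proteolipid of the proton-carrying ring (chromosome 4, 117884326 to 117887333), had 211 and 192 CPM in iMac and 171 and 156 CPM in MCC, against 83.7 and 74.1 CPM in MEF. That amounted to log2 fold changes of 1.35 ± 0.11 and 1.05 ± 0.11 (adjusted p = 0.00102 and 0.00235). Atp6v0c, the main proteolipid of that ring, had 146 and 139.7 CPM in iMac and 109.9 and 137 CPM in MCC, against 55.7 and 54.0 CPM in MEF, and rose by 1.38 ± 0.13 and 1.17 ± 0.13 (adjusted p = 0.00139 and 0.0026). Its level is uncertain, since the pseudogene Atp6v0c-ps2 drew nearly as many counts, at 134.9 CPM in iMac, 107.8 CPM in MCC and 54.1 CPM in MEF on average, and reads may have been split between them. Atp6v0d1, which links the rotor to the ring, had 0.13 ± 0.13 and -0.16 ± 0.13, and Atp6v0e 0.09 ± 0.20 in each (adjusted p of 0.333 or more). Without MEF library 1, Atp6v0d1 passed in iMac (adjusted p = 0.0374) and Atp6v0e in both (0.0331 and 0.038). Of the accessory subunits, Atp6ap2, also known as the prorenin receptor, rose by 0.62 ± 0.12 and 0.42 ± 0.12 (adjusted p = 0.011 and 0.0379). Its iMac call was lost without iMac library 1 (0.0799) and its MCC call without each library other than MEF library 1 (0.0754 to 0.0777). Atp6ap1 stood at 384 and 352 CPM in iMac and 296 and 298 CPM in MCC, against 379.7 and 281 CPM in MEF. Its log2 fold changes were 0.16 ± 0.16 and -0.15 ± 0.16 (adjusted p = 0.452 and 0.46; 0.028 with 0.40 in iMac without MEF library 1).

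The a subunit, which forms the proton path and helps to direct the pump to its membrane, is made from paralogs of which only Atp6v0a1 belongs to the 47. Atp6v0a1 had 279 and 269 CPM in iMac and 203 and 183 CPM in MCC, against 124 and 121 CPM in MEF. It rose by 1.16 ± 0.09 and 0.66 ± 0.09 on the log2 scale (adjusted p = 0.000921 and 0.00491). Tcirg1, the a3 paralog known from osteoclasts and lysosomes, had 499 and 470.0 CPM in iMac and 342 and 445 CPM in MCC, against 60.8 and 60.5 CPM in MEF. The rise on the log2 scale was 2.997 ± 0.16 and 2.70 ± 0.16 (adjusted p = 0.000308 and 0.000508). Atp6v0a2, the a2 paralog known from the Golgi and endosomes, fell by 1.37 ± 0.13 in iMac and fell by 1.22 ± 0.13 in MCC (adjusted p = 0.00137 and 0.00225). It had 43.7 and 43.1 CPM in iMac and 48.2 and 48.1 CPM in MCC, against 124 and 100.1 CPM in MEF. Of the summed level per kilobase of the 3 genes, Tcirg1 held 68.9% and 68.3% in iMac and 66.1% and 73.4% in MCC, against 26.1% and 28.3% in MEF. Atp6v0a2 held 4.12% and 4.29% in iMac and 6.37% and 5.43% in MCC, against 36.5% and 32.0% in MEF. Atp6v0a4, the paralog known from kidney, had 0 reads in both iMac libraries together and 2 in MCC, against 52 in MEF. That made it at least 15.3-fold lower in iMac (with the floor at 3 counts over the group) and 26.0-fold lower in MCC (95% counting interval 6.86 to 221, covering counting error only). Both of its calls were lost without MEF library 1 (adjusted p = 0.0736 in iMac and 0.117 in MCC) or MEF library 2 (0.0546 and 0.0811). The iMac call was lost also without either iMac library (0.0639 and 0.064) and the MCC call without MCC library 2 (0.0714).

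The d subunit showed the same kind of contrast. Atp6v0d2, the paralog of Atp6v0d1 known from osteoclasts and macrophages, had 66.5 and 53.5 CPM in iMac and 21.6 and 31.6 CPM in MCC, against 0 and 0.103 CPM in MEF, where 4 reads were counted in all. It rose by log2 fold changes of 10.06 ± 0.72 and 8.89 ± 0.71 (adjusted p = 0.000713 and 0.00116), whose size depends on those 4 reads. Per kilobase it stood at 0.231 times Atp6v0d1 in iMac and 0.125 times in MCC, against 0.000217 times in MEF. By the longest transcript these ratios were 0.224, 0.122 and 0.000211.

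**Figure D3:**
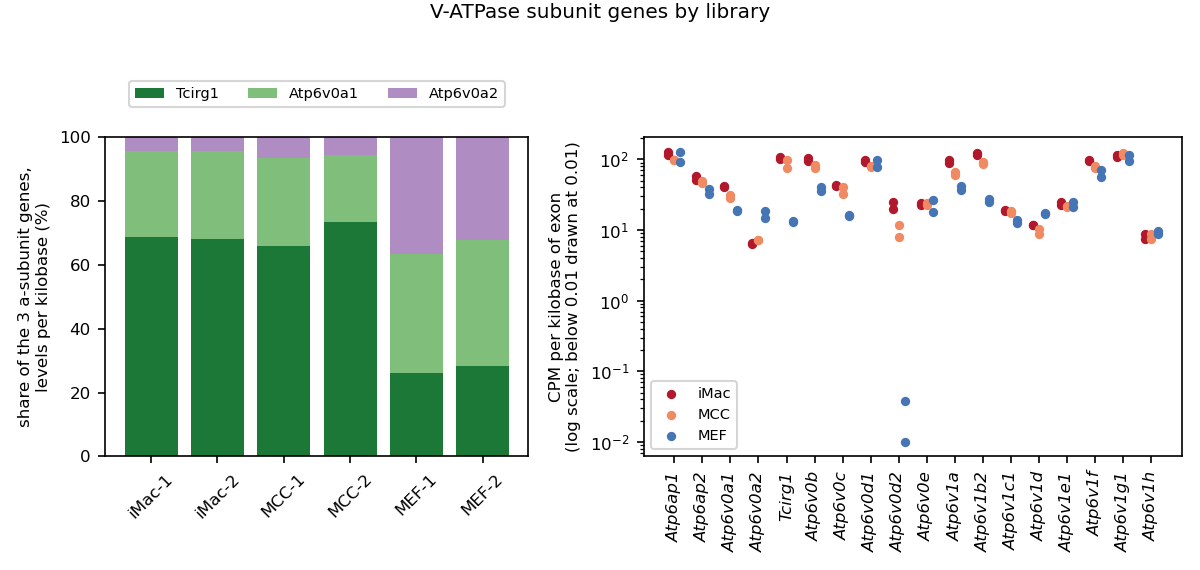
Left, share (%) of the summed level per kilobase of 3 a-subunit genes held by Tcirg1, Atp6v0a1 and Atp6v0a2 in each library; right, level per kilobase of exon in CPM (logarithmic axis, values under 0.01 drawn at 0.01) of proton pump genes in each library of iMac, MCC and MEF. Tcirg1 holds 66.1% to 73.4% in the iMac and MCC libraries and 26.1% to 28.3% in the MEF libraries.

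The third comparison, iMac against MCC, called 0 of the 47 genes in either direction; 0.0215% of all genes tested were called (4 of 18613). The lowest adjusted p among the 47 was 0.0791, for Scarb2 (log2 fold change 0.69 ± 0.08). Even so, 42 of the 47 values lay above 0, which 46.7% of all genes tested did, with a median of 0.31 for the 47 and -0.02 for all genes. At an unadjusted p under 0.05 in the edgeR test stood 24 of the 47, all of them higher in iMac, against 18.2% of all genes in either direction and 7.69% higher. DESeq2 called 19 of the 47 higher and 0 lower, against 6.41% of all genes higher and 8.28% lower. Limma-voom called 1 higher and 0 lower, against 0.543% and 0.242% of all genes. EdgeR fitted to the iMac and MCC libraries alone called 15 higher and 0 lower, against 4.36% and 4.24% of the 15859 genes it tested. The genes furthest above 0 were Hexa (0.97 ± 0.21, adjusted p = 0.159), Pld3 (0.77 ± 0.17, adjusted p = 0.157) and Scarb2, and among genes of the proton pump Atp6v1a (0.58 ± 0.12, adjusted p = 0.147), whereas Plbd1 had the largest value in size, at -1.78 ± 0.94. With library totals as the only scaling, all genes shifted by a median of -0.14 and the median of the 47 became 0.17. The macrophage marker sum was higher and the fibroblast marker sum lower in iMac than in MCC. No single marker of either list was called. Lyz2 alone held 15078 and 11716 CPM of the macrophage sum in iMac. Csf1r, Adgre1, Cd68, Itgam, Ptprc, Fcgr3 and Tyrobp also had higher means in iMac. Mrc1, Msr1 and C1qa had lower means there (1362, 273 and 768 CPM) than in MCC (2105, 506 and 894 CPM). Spi1 had nearly equal means. The part of the marker genes in these differences was not tested.

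**Figure D4:**
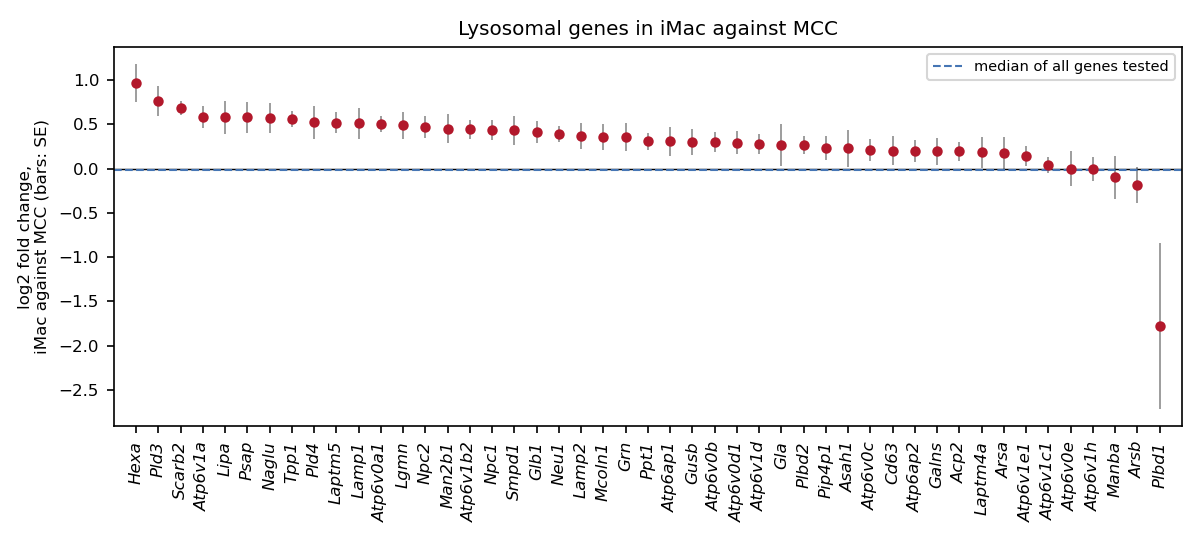
Log2 fold change in iMac against MCC (vertical axis) of the 47 genes, ordered by size, with standard errors; the dashed line is the median of all genes tested, at -0.02. The values of 42 genes lie above 0, from Hexa at 0.97 downwards, none with an adjusted p under 0.05, and Plbd1, at -1.78 ± 0.94, has the widest error.

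Other lysosomal genes, taken from 4 further lists, moved less uniformly. These genes, like the 47, were listed with earlier results of the same data known. Of 79 found in the table, 76 were tested. In iMac against MEF, 40 were higher (52.6%) and 15 lower (19.7%), beside 25.1% and 32.4% of all genes tested. In MCC against MEF, 34 were higher (44.7%) and 15 lower (19.7%), beside 23.4% and 29.6% of all genes. The same shares of all genes apply to the single lists below. Among hydrolases and activators, 16 of 30 rose in iMac and 7 fell; in MCC, 11 rose and 6 fell. Dnase2a, the acid nuclease that digests the DNA of engulfed cells, had 162 and 159.9 CPM in iMac and 117 and 124 CPM in MCC, against 9.81 and 10.9 CPM in MEF (log2 fold changes of 3.96 ± 0.10 and 3.54 ± 0.10, adjusted p = 5.99e-05 and 8.78e-05). Pla2g15, the lysosomal phospholipase A2, rose by 2.23 ± 0.27 and 1.82 ± 0.27 (adjusted p = 0.00269 and 0.00544). The largest fall was that of Epdr1, an ependymin-related gene, with 0.269 and 0.332 CPM in iMac and 6.50 and 0.669 CPM in MCC, against 58.8 and 32.0 CPM in MEF (log2 fold changes of -7.22 ± 1.29 and -3.66 ± 1.04, adjusted p = 0.00799 and 0.0346). The iMac call of Epdr1 was lost without iMac library 1 (0.065) or 2 (0.0631), and its MCC call without either MEF (0.116 and 0.0795) or either iMac library (0.0747 and 0.0748).

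Membrane proteins and transporters outside the 47 rose in 15 of 28 cases in iMac and fell in 5, and rose in 14 and fell in 6 in MCC. Cd68, a glycoprotein of macrophage lysosomes that is also one of the 12 macrophage markers, had 1329 and 1329.9 CPM in iMac and 720.1 and 790.5 CPM in MCC, against 2.58 and 3.14 CPM in MEF (log2 fold changes of 8.86 ± 0.19 and 8.04 ± 0.18, adjusted p = 5.01e-05 and 6.08e-05). Slc11a1, the metal transporter of phagolysosomes, rose by 8.52 ± 0.22 and 8.27 ± 0.22, and Mcoln2, a relative of Mcoln1, by 7.15 ± 0.29 and 6.90 ± 0.28 (adjusted p of 0.000191 or less). Laptm4b, a relative of Laptm4a, fell by 4.32 ± 0.31 in iMac and fell by 3.08 ± 0.29 in MCC (adjusted p = 0.000719 and 0.00182), so that both Laptm4 genes were lower and Laptm5 was higher than in MEF.

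Genes of mannose 6-phosphate tagging and of sorting to the lysosome, which include the tag-independent receptors Sort1 and Sorl1, rose in 6 of 10 cases in iMac and 7 of 10 in MCC, with 1 fall in each. That fall was Igf2r, the larger of the mannose 6-phosphate receptors, with 225 and 175 CPM in iMac and 284 and 204 CPM in MCC, against 1055 and 906 CPM in MEF (log2 fold changes of -2.29 ± 0.23 and -2.005 ± 0.22, adjusted p = 0.00161 and 0.00271). The smaller receptor M6pr rose, with 379 and 365 CPM in iMac and 389.6 and 421 CPM in MCC, against 170.1 and 136 CPM in MEF (1.28 ± 0.14 and 1.40 ± 0.14, adjusted p = 0.00197 and 0.00195). Nagpa, which uncovers the mannose 6-phosphate tag, rose by 2.18 ± 0.12 and 2.20 ± 0.12, and the sorting adaptor Gga3 by 1.38 ± 0.09 and 1.01 ± 0.09 (adjusted p of 0.00145 or less).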

How the data were processed

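RNA was measured in 6 libraries, 2 each of iMac, MCC and MEF. The deposited table holds raw counts per gene, which the authors made with STAR on mm10 and featureCounts, per the submitters' processing notes. Tool versions, gene annotation, strand setting and treatment of multiply mapped reads were not stated. Total RNA was extracted with Trizol and an mRNA library kit was used, per the labels' protocols. No line of the table lacked a gene name.

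The counts were used as deposited. Tests used edgeR 4.0.16 (R 4.3.3) with filterByExpr, TMM scaling and the two-sided quasi-likelihood test, in 1 fit of the 6 libraries by group. This left 18613 genes and 3 residual degrees of freedom. Adjustment was by Benjamini-Hochberg over these genes, with a threshold of 0.05. CPM are counts per 1e6 of the TMM-scaled library total. Standard errors (SE) of edgeR values were back-calculated as the absolute log2 fold change over the square root of the F statistic. They may understate counting error where a group has few reads. Levels per kilobase used the union of exons in GENCODE M21 (GRCm38, the assembly of mm10), and promoter windows came from RefSeq GRCm38.p6. The procedure was tested on simulated data in which few genes changed, in iMac only and equally up and down. That test does not cover changes as broad as those seen here. The 47 genes, the role groups and the other lists were chosen with earlier results of these data known. Genes given with all library values were the strongest called ones of each role group, those called against its majority, its most abundant one and fixed paralog pairs. Other genes of the 47 are given with fewer values, or with all of them for some whose libraries lay apart. Among the 47 at 10 CPM or more, the widest between libraries were Arsb in iMac, Galns in MCC and Manba in MEF. They differed by 0.54, 0.41 and 0.75 on the log2 scale and are given with fewer values. Of the 4 other lists, up to 4 called genes with the largest change were named, plus partners of listed genes. A gene that this rule names is not reported here.

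Alternatives were median-ratio size factors, library totals, DESeq2 1.42.0, limma-voom (limma 3.58.1), no filter, 5 CPM or more in 2 libraries, fitting each pair of groups by itself, the replicate number as a block, and leaving out single libraries. A group with a lone library is then assumed to vary like the other groups. Those for single genes outside the 47 were added after the data were seen. Figures used Python 3.11.15 and matplotlib 3.10.9.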

Additional observations from a re-analysis of the deposited data

How the results depend on the processing

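Under the 8 alternatives that leave out no library of the groups compared, 30 to 33 of the 47 genes were higher and 3 to 5 lower in iMac than in MEF, and 26 to 30 higher and 3 to 5 lower in MCC than in MEF, with 3 lower in the fit of only the groups compared. No gene of the 47 that was called changed direction under any alternative. Leaving out 1 library gave 25 to 37 higher and 2 to 3 lower in iMac against MEF, with 2 without iMac library 1 or 2, and 24 to 28 higher and 3 to 5 lower in MCC against MEF, with 3 without an MCC or an iMac library. The cause was not tested. For the other lysosomal genes, 8 to 15 were lower in iMac than in MEF in these fits.

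For iMac against MCC the outcome depended on the tool. Of the 47 genes, DESeq2 called 19 higher, limma-voom 1 and the fit of only the groups compared 15; of the other lysosomal genes they called 17, 2 and 15 higher, DESeq2 called 7 lower and the fit of only the groups compared 4. Leaving out 1 library gave 0 to 1 higher and 0 to 3 lower among those genes. Among all genes, where edgeR on all 6 libraries called 2 in each direction, DESeq2 called 1193 higher and 1541 lower, the fit of only the groups compared 691 and 673, limma-voom 101 and 45, and no filter on low counts 40 and 49. With library totals without scaling, 1 was higher. Leaving out 1 library gave 0 to 66 higher and 0 to 1136 lower, the upper ends without MCC library 2.

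In the background, the filter of 5 CPM in 2 libraries tests fewer genes and left 3972 lower in iMac and 3656 lower in MCC than in MEF. Leaving out 1 library gave 2492 to 4378 higher and 2678 to 6319 lower in iMac against MEF, the lowest without an iMac library, and 3514 to 4976 lower in MCC against MEF. With the replicate number as a block, 33 of the 47 genes were higher and 3 lower in iMac, 26 higher and 5 lower in MCC, and 0 of all genes were called in iMac against MCC in either direction. The calls lost with the block were those of Arsa in iMac (adjusted p = 0.0689) and of Pip4p1 and Plbd1 in MCC (0.0673 and 0.0816). Same-numbered libraries deviated together with correlations of -0.00688 (iMac and MEF), 0.131 (MCC and MEF) and 0.00226 (iMac and MCC), and the number was not taken to pair the libraries. The fit has 3 residual degrees of freedom, and Plbd1, Atp6v0a4 and the MEF levels of Laptm5, Pld4 and Atp6v0d2 rest on few reads.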
